A study of Mus musculus with 12 samples.

Results

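The genes described here are 10 cytokines and chemokines that cells of connective tissue can release after a growth factor: *Ccl2*, *Ccl7*, *Cxcl1*, *Cxcl5*, *Cxcl12*, *Il6*, *Il11*, *Lif*, *Csf1*, and *Il33*. They were taken by gene symbol from the count table, where all 10 were found among 51490 genes. The cells were iMEPM cells, an immortalized line of mouse embryonic palatal mesenchyme, the connective tissue that forms the secondary palate. The line came from a male *Cdkn2a*-/- embryo, so that all groups lack this cell cycle inhibitor. Cells carried either a scramble shRNA (scramble) or an shRNA against the 3′ UTR of *Srsf3* (shSrsf3), which encodes an RNA-binding protein of the SR family that acts in splicing. Both shRNAs were delivered by a lentivirus that also encodes GFP and puromycin resistance, and each line was selected with puromycin, sorted for the highest GFP, and used between passages 9 and 20. There was 1 line for each shRNA, so that an effect of the shRNA and a difference between these 2 lines cannot be told apart. Serum-starved cells were left unstimulated (-PDGF-AA) or were given 10 ng/mL PDGF-AA, the ligand of the receptor PDGFRα, for 1 hr (+PDGF-AA). Each of the 4 conditions had 3 biological replicates, 12 samples in all, and p-values measure the spread between these cultures.

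Chemokines are small secreted proteins that draw cells carrying the matching receptor. *Ccl2* and *Ccl7* encode CC chemokines for monocytes, *Cxcl1* and *Cxcl5* encode CXC chemokines for neutrophils, and *Cxcl12* encodes the ligand of Cxcr4, made steadily by stromal cells. Il6, Il11, and Lif are cytokines that share the signaling receptor gp130, encoded by *Il6st*, and act through Jak kinases and Stat3. Csf1 is the growth factor of macrophages, and Il33 is a nuclear cytokine of the IL-1 family. *Ccl2* was among the first genes found to be induced by PDGF in fibroblasts. Many transcripts of this kind are short-lived, and their decay is hastened by AU-rich elements in the 3′ UTR, in which the pentamer ATTTA is repeated.

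Promoters are shown for 5 members because their letters can be set beside the changes described below. RefSeq promoters, 250 bases before to 50 bases after a start site on GRCm38.p6, were at hand for 7 members. *Ccl2*, *Ccl7*, and *Cxcl5* had no entry. Each sequence below matched the GRCm39 genome exactly at 1 place, which is the position given. Capitals mark matches to the NF-kB or AP-1 motif on either strand, and the sequence runs along the strand of the gene.
Cxcl1: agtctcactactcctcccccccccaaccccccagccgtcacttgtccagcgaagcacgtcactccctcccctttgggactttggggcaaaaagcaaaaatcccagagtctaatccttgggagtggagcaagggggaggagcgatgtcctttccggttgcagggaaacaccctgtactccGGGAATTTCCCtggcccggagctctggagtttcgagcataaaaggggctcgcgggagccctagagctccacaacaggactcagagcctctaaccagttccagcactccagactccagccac
Lif: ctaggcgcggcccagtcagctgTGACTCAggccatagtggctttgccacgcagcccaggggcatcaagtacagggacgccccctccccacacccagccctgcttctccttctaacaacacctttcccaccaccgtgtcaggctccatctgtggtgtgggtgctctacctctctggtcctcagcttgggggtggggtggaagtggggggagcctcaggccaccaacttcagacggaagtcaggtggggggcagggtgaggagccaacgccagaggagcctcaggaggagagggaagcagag
Csf1: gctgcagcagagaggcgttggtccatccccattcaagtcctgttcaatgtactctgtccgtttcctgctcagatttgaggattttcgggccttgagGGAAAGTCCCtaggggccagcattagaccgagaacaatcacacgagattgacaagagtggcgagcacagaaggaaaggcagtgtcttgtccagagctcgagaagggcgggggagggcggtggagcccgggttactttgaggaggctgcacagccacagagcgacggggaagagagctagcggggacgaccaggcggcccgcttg
Il6: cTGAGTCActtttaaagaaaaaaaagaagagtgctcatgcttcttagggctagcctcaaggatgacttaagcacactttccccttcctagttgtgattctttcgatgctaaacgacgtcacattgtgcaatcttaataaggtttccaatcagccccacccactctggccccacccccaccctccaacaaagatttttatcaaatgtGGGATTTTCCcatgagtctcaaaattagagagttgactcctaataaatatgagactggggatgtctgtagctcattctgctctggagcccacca
Cxcl12: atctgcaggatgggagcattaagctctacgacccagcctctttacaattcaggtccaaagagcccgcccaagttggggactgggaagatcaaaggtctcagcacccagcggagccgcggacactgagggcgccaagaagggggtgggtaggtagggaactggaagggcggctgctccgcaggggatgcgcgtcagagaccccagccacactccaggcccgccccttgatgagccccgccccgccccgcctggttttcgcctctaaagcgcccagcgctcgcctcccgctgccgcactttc
These windows lie at chr5:91038854-91039153 (plus strand) for *Cxcl1*, chr11:4207318-4207617 (plus strand) for *Lif*, chr3:107667736-107668035 (minus strand) for *Csf1*, chr5:30217862-30218161 (plus strand) for *Il6*, and chr6:117145246-117145545 (plus strand) for *Cxcl12*. Counted from the start site, the NF-kB motif began at base -71 in *Cxcl1*, where copies on both strands overlap, at -154 in *Csf1*, and at -44 in *Il6*. The AP-1 motif, TGANTCA, began at -228 in *Lif*, at -249 in *Il6*, and at -98 in 1 of 2 *Il11* promoters. *Cxcl12* and *Il33* held neither motif in these windows, and no member held CRE (TGACGTCA), STAT (TTCNNNGAA), or the CArG box. The *Cxcl12* window lies wholly inside the gene as annotated (chr6:117144945-117158328), so that the bases before the annotated gene start were not searched. Among 32851 promoters of this length, 4.51% held the NF-kB motif, 7.81% AP-1, 1.79% CRE, 8.3% STAT, and 1.63% the CArG box. A match is a description of the letters and not evidence that a factor was bound.

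The 3′ UTRs differed in their ATTTA content, and windows of 30 bases at the densest stretch are shown for 6 members, with each ATTTA in capitals and overlapping copies merged.
Cxcl1: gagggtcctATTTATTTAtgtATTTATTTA
Il6: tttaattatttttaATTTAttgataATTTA
Lif: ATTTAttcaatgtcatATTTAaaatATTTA
Ccl7: tggtctttaagttattaatatttttATTTA
Ccl2: tgatgccttaattaatattaaacttATTTA
Cxcl12: aagcaaatccgaATTTAaataggacATTTA
*Il6* had 6 copies in 427 bases and *Cxcl1* had 7 copies in 592 bases, or 14.1 and 11.8 per kilobase, above 99.8% and 99.5% of the 12638 tested protein-coding genes with a 3′ UTR. *Il11* followed with 10 copies in 1194 bases, *Ccl7* had 2 copies in 435 bases, and *Ccl2* had 1 copy in 275 bases. *Lif* had 7 copies in 3180 bases and *Csf1* had 4 copies in 2111 bases, 2.20 and 1.90 per kilobase, beside a median of 1.37 over all these genes. *Cxcl12* had 4 copies in 5188 bases, which was 0.771 per kilobase and below that median. The longer nonamer TTATTTATT occurred in *Cxcl1*, *Il11*, and *Lif*, and in 9.3% of all these 3′ UTRs.

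Total counts per sample ranged from 30958966 to 76123359. *Srsf3* fell in shSrsf3 cells, from 206 ± 6.59 to 162 ± 1.46 CPM (per-million counts, mean ± SD, n = 3) without ligand and from 222 ± 8.07 to 165 ± 4.33 CPM with it. Of 15 palatal mesenchyme markers, 13 passed the filter on low counts, with a summed level of 35604 to 41952 CPM, and *Tbx22* had no count. In shSrsf3 samples this sum was lower, 35604 to 38473 CPM against 40213 to 41952 CPM in scramble samples, although single markers went both ways. Of the 13, 8 were called lower without and 6 with ligand, while *Twist2* and *Vim* were called higher in both. The called markers that changed at least 2-fold, 1 without ligand and 2 with it, were all lower. Their log2 fold changes were -1.03 without ligand and -1.10 and -1.01 with it. Macrophage and leukocyte markers, which mark cells that respond to these cytokines, summed to 4.83 to 6.52 CPM in scramble and 6.65 to 7.25 CPM in shSrsf3 samples, and *Adgre1*, *Tyrobp*, *C1qa*, *C1qb*, and *Cd3e* had no count in any sample. Endothelial markers summed to 34.1 to 38.1 CPM in scramble and 24.5 to 29.2 CPM in shSrsf3 samples, with *Tie1*, *Cldn5*, and *Sox17* at 0. *Tek* had the highest counts of the endothelial markers, 510 to 2146 per sample, and weighs most in this sum. Of 5 endothelial markers tested, 3 were called higher and 1 lower in shSrsf3 cells in each ligand condition. *Tek* was lower and *Cdh5* higher (log2 fold changes of -0.61 and 2.33 without ligand). Epithelial markers summed to 7.33 to 10.4 CPM, with *Esrp1* at 0. Among scramble samples, the methods give lower read mapping rates to replicates 1 and 2 of -PDGF-AA and to replicate 2 of +PDGF-AA. Replicates 1 and 2 of -PDGF-AA differed from replicate 3, and replicate 2 of +PDGF-AA from replicates 1 and 3 (chi-square per degree of freedom over genes 16.9 to 33.9). The other pairs of replicates had 4.19 to 8.82, among them replicates 1 and 2 of scramble -PDGF-AA (5.47). Results are therefore also given for the 9 samples without the 3 of lower mapping rate. This leaves replicate 3 alone in scramble -PDGF-AA. A call gained or lost there in a comparison with this group rests on that 1 sample and is a description.

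All 10 members were detected, over a wide range. Per kilobase of the canonical transcript, the order in unstimulated scramble cells was *Csf1* (109 ± 4.14 CPM per kilobase, n = 3), *Ccl2* (26.1 ± 1.71), *Cxcl12* (16.9 ± 0.297), *Ccl7* (15.9 ± 0.721), *Lif* (5.02 ± 0.354), *Cxcl1* (2.26 ± 0.769), *Il11* (0.840 ± 0.255), *Il6* (0.348 ± 0.0403), *Cxcl5* (0.0314 ± 0.0275), and *Il33* (0.0162 ± 0.0170). Only the lowest neighbours, *Cxcl5* and *Il33*, overlapped in their samples. With PDGF-AA the scramble cells had *Ccl7* at 26.8 ± 0.803 CPM per kilobase, ahead of *Cxcl12* at 17.3 ± 0.312, and no neighbours overlapped. In unstimulated shSrsf3 cells *Il6* (0.982 ± 0.0838 CPM per kilobase) stood level with *Il11* (0.923 ± 0.0643), and their samples overlapped, as did those of *Cxcl12* and *Ccl7* and those of *Il33* and *Cxcl5*. With ligand, *Il6* and *Il11* were the only neighbours whose shSrsf3 samples overlapped.

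**Figure D1:**
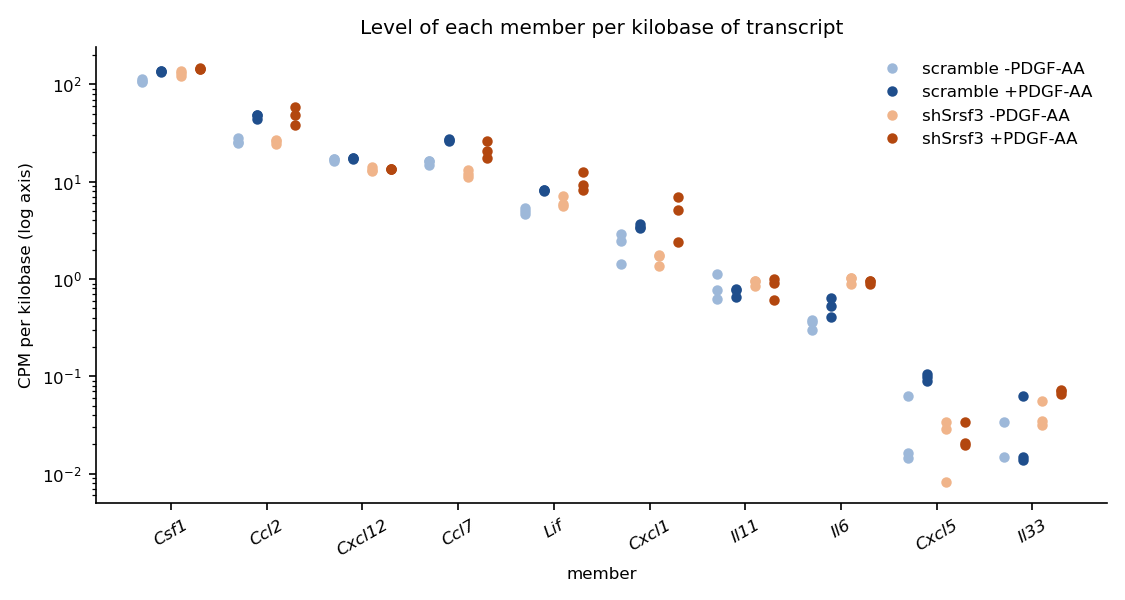
CPM per kilobase of transcript (log axis) for each member, ordered by level in scramble -PDGF-AA cells, with 1 point for each sample and 1 color for each condition; samples at 0 are not drawn. *Csf1* lies above 100 in all samples, at 109 to 146 on average, and *Cxcl5* and *Il33* lie below 0.11.

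PDGF-AA raised the monocyte chemokines, *Lif*, and *Csf1* in scramble cells within 1 hr. The question of this comparison is which of these genes respond to PDGFRα signaling. Of the 9 members that passed the filter on low counts, 4 were called higher and 0 lower at an adjusted p of 0.05 or less (edgeR quasi-likelihood test), where 4.04% of all 15037 genes tested were called, 2% higher and 2.04% lower. The median log2 fold change of the 9 members was 0.61, beside -0.01 over all genes. In shSrsf3 cells 4 members were called higher and 0 lower, where 0.565% of all genes were called, 0.426% higher and 0.14% lower. The median there was 0.69, beside -0.00 over all genes. The members were chosen with earlier results of these data known, so that these shares and medians describe the list and do not test it independently. The samples with and without ligand did not overlap for 6 of the 9 members in each line. Of all genes, 18.8% in scramble cells and 18% in shSrsf3 cells did not. The 6 in shSrsf3 cells include *Il33*, which passed the filter mainly through the shSrsf3 samples with ligand. Its lack of overlap is therefore no evidence of a response. Among the 9 samples of higher mapping rate, 3 members were called in scramble and 5 in shSrsf3 cells. None of the 4 in scramble cells and 1 of the 4 in shSrsf3 cells changed at least 2-fold and so were differentially expressed (DE), as did 0.2% and 0.0399% of all genes. Within bulk RNA, a change in the number of cells that express a gene and a change of its RNA per cell cannot be told apart.

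**Figure D2:**
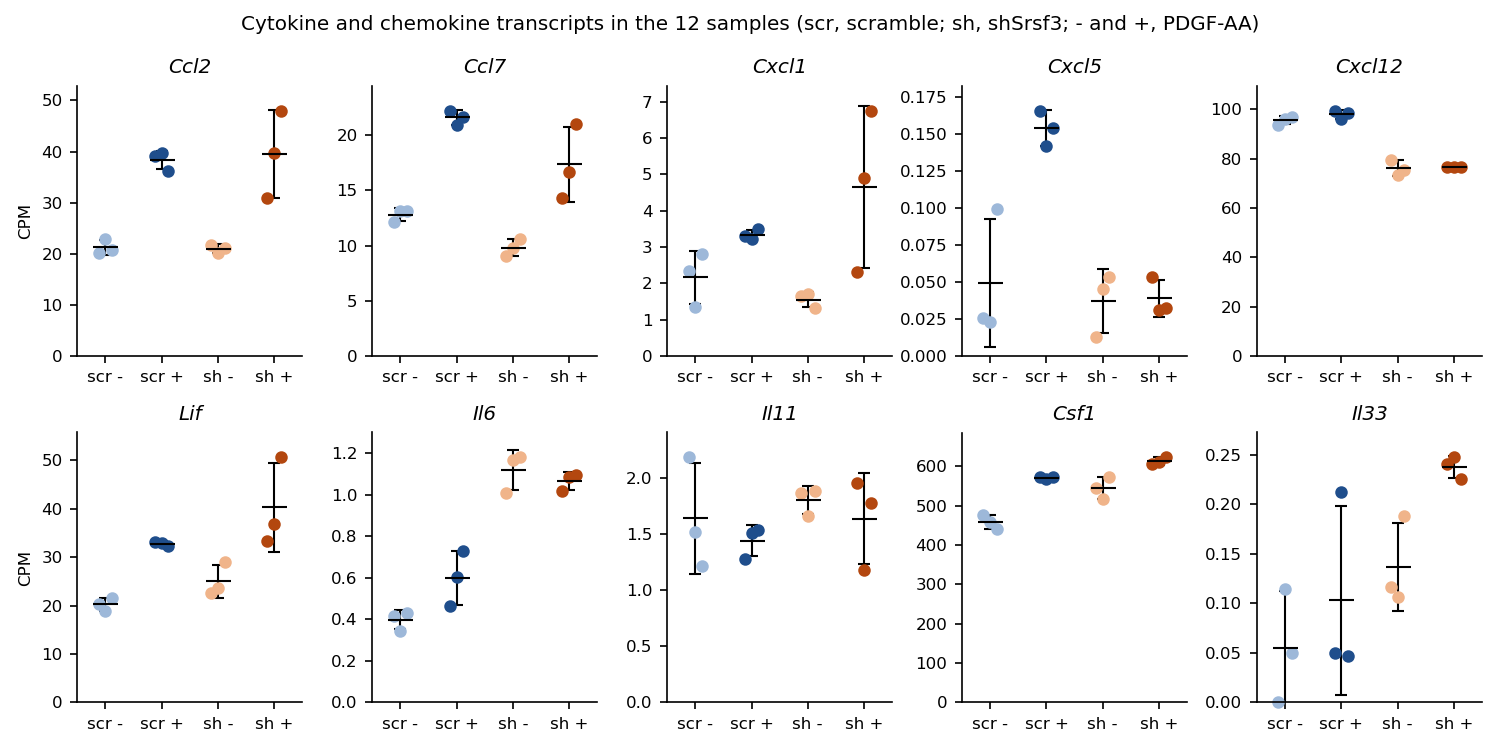
CPM of the 10 members in the 12 samples, 1 panel each with its own axis from 0, with points for samples and black bars for the mean ± SD of 3 samples. *Ccl2* rises from about 21.2 to 38.3 CPM with ligand in scramble cells, *Cxcl12* is below 80 CPM in shSrsf3 samples and above 93 CPM in scramble samples, and *Il6* is above 1 CPM in shSrsf3 samples alone.

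*Ccl2* (chr11:81926397-81928279, plus strand, GRCm39) stood at 20.2, 22.8, and 20.7 CPM in scramble -PDGF-AA samples and at 39.1, 39.7, and 36.2 CPM in scramble +PDGF-AA samples. The stimulated samples were all above the unstimulated ones, by a log2 fold change of 0.85 (SE 0.113, adjusted p = 8.16e-04), or 1.81-fold. In shSrsf3 cells it stood at 21.8, 20.1, and 21.1 CPM without ligand and at 30.8, 39.7, and 48.02 CPM with it, a log2 fold change of 0.91 (SE 0.114, adjusted p = 0.00228). The groups again did not overlap, and the stimulated shSrsf3 samples were more spread out than those of scramble cells (SD 8.61 against 1.84 CPM). Between the lines *Ccl2* did not pass the test, with log2 differences of -0.02 (95% interval -0.27 to 0.23) without ligand and 0.04 (-0.20 to 0.28) with it.

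*Ccl7*, which encodes a second monocyte chemokine, lies 8252 bases downstream of *Ccl2* with no protein-coding gene between them (chr11:81936532-81938351, plus strand). Its level was 12.1, 13.2, and 13.1 CPM in unstimulated and 22.2, 20.9, and 21.6 CPM in stimulated scramble samples. Again all stimulated samples were higher, by a log2 fold change of 0.75 (SE 0.102, adjusted p = 9.68e-04). The shSrsf3 samples had 9.06, 9.81, and 10.6 CPM without ligand and 14.3, 16.7, and 21.05 CPM with it, a log2 fold change of 0.82 (SE 0.108, adjusted p = 0.00284). Unlike *Ccl2*, *Ccl7* was also lower in shSrsf3 than in scramble cells without ligand, with no overlap (log2 fold change -0.39, SE 0.107, adjusted p = 0.00859). With ligand the difference was -0.32 (adjusted p = 0.0223), the highest shSrsf3 sample reached the scramble range, and the call was lost without scramble +PDGF-AA replicate 1 or 3 or without shSrsf3 +PDGF-AA replicate 1 or 2 (adjusted p of 0.0543 to 0.118). Across the 12 samples, after the means of the 4 conditions were subtracted, *Ccl2* and *Ccl7* had a Pearson r of 0.82 on the log2 CPM scale, a description that carries any effect shared by a library.

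*Cxcl1* encodes a neutrophil chemokine and was DE upon PDGF-AA in shSrsf3 cells. It was at 1.64, 1.70, and 1.32 CPM in unstimulated and at 2.32, 4.89, and 6.76 CPM in stimulated shSrsf3 samples (log2 fold change 1.55, SE 0.316, adjusted p = 0.0467). The stimulated samples were all higher but lay far apart, and the call was lost without any 1 of the samples other than shSrsf3 +PDGF-AA replicate 1 (adjusted p of 0.136 to 0.222, log2 fold changes of 1.19 to 1.62). Scramble samples had 2.34, 1.36, and 2.80 CPM without ligand and 3.31, 3.21, and 3.49 CPM with it, which did not overlap and did not pass the test (log2 fold change 0.61, SE 0.305, adjusted p = 0.323). The 2 lines did not differ beyond their spread in either ligand condition (adjusted p = 0.253 and 0.232). *Cxcl5*, which lies 129610 bases away on chromosome 5 with 4 protein-coding genes between them, failed the filter on low counts. It had 1, 1, and 6 counts in scramble -PDGF-AA, 10, 8, and 10 in scramble +PDGF-AA, 1, 3, and 2 in shSrsf3 -PDGF-AA, and 2, 1, and 1 in shSrsf3 +PDGF-AA. The stimulated scramble samples were the highest of the 12, and a difference of a few counts was not tested.

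*Cxcl12* (chr6:117144945-117158328, plus strand) was lower in shSrsf3 cells, and none of its ligand differences passed the test. It stood at 93.6, 96.2, and 96.8 CPM in unstimulated scramble and at 79.6, 73.3, and 75.3 CPM in unstimulated shSrsf3 samples. Every shSrsf3 sample was lower (log2 fold change -0.33, SE 0.0377, adjusted p = 1.04e-05). With ligand the levels were 99.5, 96.0, and 98.4 CPM against 76.8, 76.6, and 76.7 CPM, again without overlap (log2 fold change -0.35, adjusted p = 6.09e-06). The ligand differences were 0.04 (95% interval -0.04 to 0.12) in scramble and 0.01 (-0.07 to 0.09) in shSrsf3 cells. Its signaling receptor *Cxcr4* averaged at most 0.187 CPM in a condition, and *Ackr3*, which encodes a receptor that takes up Cxcl12, averaged 116 to 147 CPM.

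Of the gp130 cytokines, *Lif* rose upon ligand in both lines and *Il6* was higher in shSrsf3 cells. *Lif*, a cytokine that maintains stem cells and acts on bone (chr11:4207557-4222514, plus strand), had 20.2, 18.8, and 21.6 CPM in unstimulated and 33.2, 32.9, and 32.3 CPM in stimulated scramble samples. It rose without overlap (log2 fold change 0.70, SE 0.126, adjusted p = 0.00726), although among the 9 samples of higher mapping rate the value was 0.60 and the call was lost (adjusted p = 0.120). The shSrsf3 samples had 22.5, 23.6, and 28.9 CPM without ligand and 33.3, 36.9, and 50.7 CPM with it (log2 fold change 0.69, SE 0.126, adjusted p = 0.0220). Here too the groups did not overlap, and the call was lost without shSrsf3 -PDGF-AA replicate 1 or 2 or shSrsf3 +PDGF-AA replicate 2 (adjusted p = 0.181, 0.142, and 0.0510). All shSrsf3 samples lay above the scramble samples of the same treatment, with log2 differences of 0.29 in both, which did not pass the test (adjusted p = 0.0770 and 0.0741). In each ligand condition 11 of 14 alternative fits also gave no call for this difference, and the others called *Lif* higher in shSrsf3 cells.

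*Il6* (chr5:30218112-30224979, plus strand), the cytokine of the acute phase response, had few counts, 15 to 78 per sample. It was at 0.416, 0.345, and 0.431 CPM in unstimulated scramble samples and at 1.01, 1.17, and 1.18 CPM in unstimulated shSrsf3 samples. The groups were far apart, and *Il6* was DE (log2 fold change 1.48, SE 0.218, adjusted p = 9.99e-05). With ligand it had 0.465, 0.603, and 0.726 CPM in scramble and 1.02, 1.08, and 1.09 CPM in shSrsf3 samples, still without overlap but less than 2-fold apart (log2 fold change 0.83, SE 0.211, adjusted p = 0.00649). Upon PDGF-AA the scramble samples differed by 0.58 on the log2 scale without overlap (adjusted p = 0.194), and the shSrsf3 samples by -0.07 (95% interval -0.50 to 0.37). *Il6* overlaps *Gm42450* on the opposite strand. *Il11*, which encodes a cytokine of bone and fibrosis, had 1.18 to 2.18 CPM over the 12 samples, with overlapping groups in every comparison and adjusted p of 0.549 or more. Of its 31-base stretches, 5.2% also occur in other genes, the highest share among the members.

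*Csf1* was the most abundant member and moved with both the ligand and the shRNA. Unstimulated scramble samples had 476, 459, and 442 CPM and stimulated ones had 573, 567, and 572 CPM. It rose by a log2 fold change of 0.31 (SE 0.0393, adjusted p = 5.31e-04), a small change that was large beside the spread. The shSrsf3 samples had 545, 518, and 572 CPM without ligand and 606, 611, and 623 CPM with it, which did not overlap and did not pass the test (log2 fold change 0.17, SE 0.0393, adjusted p = 0.0832), while in the 9 samples of higher mapping rate it did (adjusted p = 0.0289). Without ligand *Csf1* was higher in shSrsf3 than in scramble cells (log2 fold change 0.25, SE 0.0393, adjusted p = 1.90e-04). With ligand the difference of 0.10 passed narrowly (adjusted p = 0.0481), and the call was lost without any 1 of the 6 samples compared (adjusted p of 0.0633 to 0.113). *Csf1* lies at chr3:107648364-107667806 on the minus strand, and *Gm40121* overlaps it on the other.

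*Il33* was close to the limit of detection and passed the filter through 4 samples, the 3 of shSrsf3 +PDGF-AA and scramble +PDGF-AA replicate 2. Its counts were 0, 5, and 3 in scramble -PDGF-AA, 3, 12, and 3 in scramble +PDGF-AA, 9, 7, and 7 in shSrsf3 -PDGF-AA, and 9, 8, and 7 in shSrsf3 +PDGF-AA. None of its comparisons passed the test, with adjusted p of 0.133 to 0.722 for the 4 between pairs of conditions. Scramble +PDGF-AA replicate 2 alone exceeded the other scramble samples. Without it *Il33* passes the filter only through the shSrsf3 +PDGF-AA samples, its highest group, so that no call is read from the fits that leave this sample out. Its receptor gene *Il1rl1*, by contrast, averaged 73.5 to 108 CPM.

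Between the lines, the same shRNA comparison over all members gave 2 called higher (*Il6* and *Csf1*) and 2 lower (*Cxcl12* and *Ccl7*) without ligand, 4 of 9 where 45.9% of all genes were called (22.2% higher and 23.7% lower). With ligand the counts were again 2 higher and 2 lower, where 41% of all genes were called (20.3% higher and 20.7% lower). These shares are near the background, so that the count is no result about the members. The number of DE members was 1 and 0, where 5.75% and 5.42% of all genes were DE. The samples of the 2 lines did not overlap for 5 of 9 members in each ligand condition. Of all genes, 53.3% without and 52.6% with ligand did not. The 5 with ligand include *Il33*, which passed the filter mainly through the shSrsf3 samples with ligand, so that its lack of overlap is no result. In the 9 samples of higher mapping rate the number called was 4 without ligand and, besides *Il33*, 3 with it. The summed palatal mesenchyme and endothelial markers were lower and the summed macrophage and leukocyte markers higher in the shSrsf3 samples, as given above. Such sums follow their most abundant genes, and single palatal mesenchyme and endothelial markers went both ways. Of the 4 macrophage and leukocyte markers tested, 1 was called higher and 0 lower in each ligand condition. The called marker had the highest counts of its list, 127 to 331 per sample. Without ligand the lowest log2 fold change among the 4 was -0.43, which was not called. The part of these markers in the differences between the lines was not tested. The ligand and shRNA comparisons share samples, and so their values are set side by side without a measure of likeness.

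**Figure D3:**
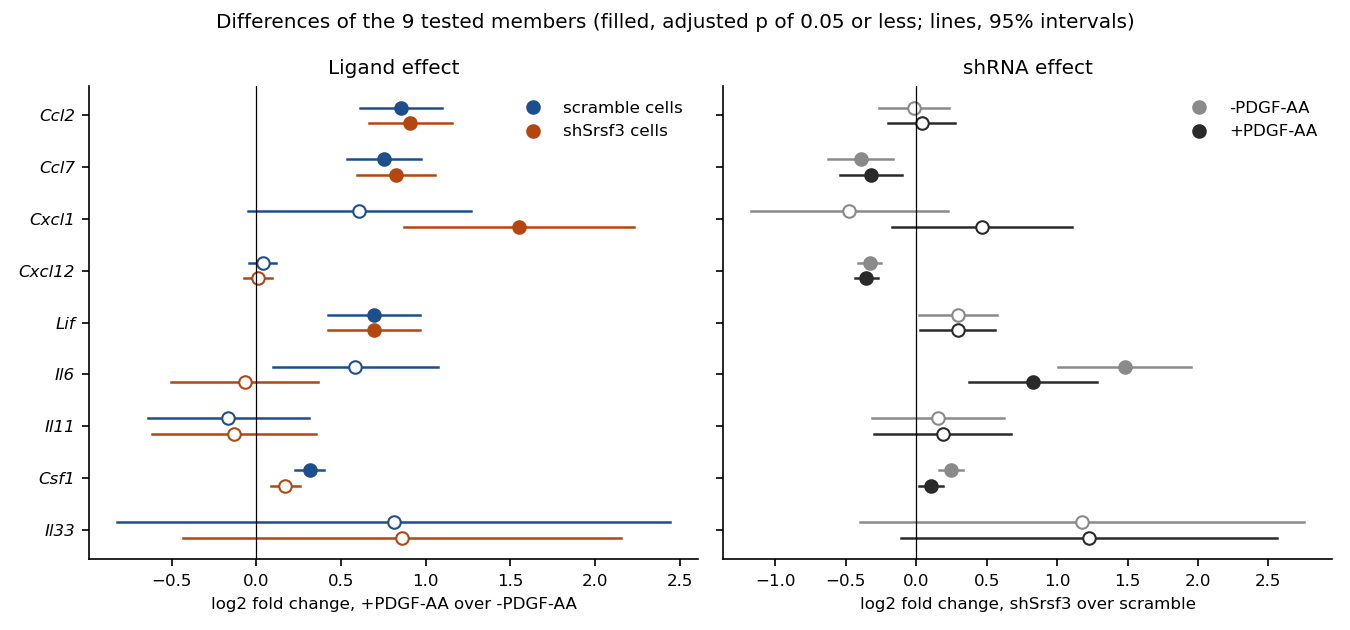
Log2 fold changes of the 9 tested members upon PDGF-AA (left, blue for scramble and orange for shSrsf3 cells) and between shSrsf3 and scramble cells (right, gray without and black with ligand), with lines for 95% intervals and filled points for an adjusted p of 0.05 or less. *Ccl2* and *Ccl7* lie between 0.75 and 0.91 in both lines upon ligand, *Il6* is at 1.48 and 0.83 on the right, and the intervals of *Il33* are the widest.

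Whether the ligand acted differently in the 2 lines was asked by the interaction, the difference between their log2 fold changes. No member was called by edgeR (0 of 9, smallest adjusted p = 0.874), where 0.0133% of all genes were called, and none was called by DESeq2. Only *Csf1* had an unadjusted p under 0.05 in edgeR (1 of 9, where 5.54% of all genes were under that level), with an interaction of -0.14 (SE 0.0556) on the log2 scale. The interactions of *Ccl2* (0.06, 95% interval -0.29 to 0.40), *Ccl7* (0.07, -0.25 to 0.39), and *Lif* (0.00, -0.38 to 0.37) allow differences in either direction. *Cxcl1* had an interaction of 0.94 (-0.00 to 1.89) and *Il6* of -0.65 (-1.31 to 0.00), the largest in size among the members. Without the filter on low counts *Cxcl1* was called (0.93, adjusted p = 0.00583).

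**Figure D4:**
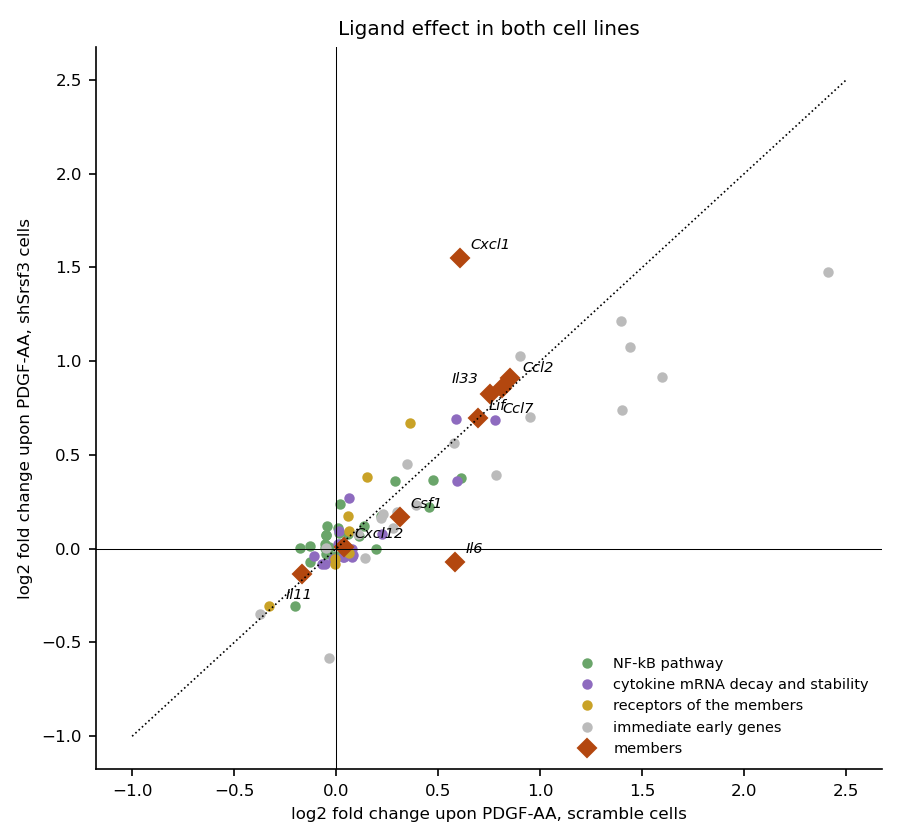
Log2 fold changes upon PDGF-AA in scramble cells (horizontal) and shSrsf3 cells (vertical) for the 9 tested members (diamonds) and the genes of 4 lists (circles), with a dotted line where both are equal. *Ccl2*, *Ccl7*, and *Lif* lie near the line, *Cxcl1* lies above it (0.61 and 1.55), and *Il6* lies below it (0.58 and -0.07).

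Of 17 receptors of the members, 8 passed the filter on low counts, those of gp130 cytokines, Csf1, and Il33 and *Ackr3*, and the receptors of monocytes and neutrophils, *Ccr2* and *Cxcr2*, averaged at most 0.00554 and 0.0681 CPM in a condition. Between the lines 3 were called higher and 2 lower in each ligand condition, 5 of 8 where 45.9% and 41% of all genes were called. *Il6st*, which encodes gp130, fell from 714 ± 8.83 to 488 ± 12.4 CPM (n = 3) without ligand (log2 fold change -0.55, adjusted p = 3.50e-08). *Lifr*, which encodes the partner of gp130 for Lif, fell from 21.3 ± 2.15 to 10.8 ± 0.586 CPM without ligand (log2 fold change -0.99, adjusted p = 3.93e-06) and by 1.03 on the log2 scale with it (adjusted p = 3.94e-06). No receptor was called upon PDGF-AA in either line (edgeR, 1 of 8 in scramble and 4 of 8 in shSrsf3 cells at an unadjusted p under 0.05), while 2 of 9 tested were called higher in shSrsf3 cells among the 9 samples of higher mapping rate. *Il1rl1* and *Il6ra* came closest in shSrsf3 cells, with log2 fold changes of 0.38 (adjusted p = 0.0565) and 0.67 (adjusted p = 0.0859).

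The JAK-STAT3 list holds the pathway through which gp130 cytokines act. Of its 14 genes, all tested, 6 were lower and 1 higher in shSrsf3 than in scramble cells without ligand. With ligand 10 were lower and 1 higher in shSrsf3 cells. The medians were -0.13 and -0.19, beside -0.02 and -0.01 over all genes. Of all genes 23.7% were called lower without and 20.7% with ligand, and the list as a whole was not tested. *Socs3*, a feedback inhibitor that Stat3 induces, was lower in shSrsf3 cells by 0.99 on the log2 scale without ligand (adjusted p = 2.51e-08) and by 1.02 with it (adjusted p = 2.49e-08). None of the 14 was called upon PDGF-AA in either line (edgeR), with 3 and 5 at an unadjusted p under 0.05, while among the 9 samples of higher mapping rate 1 was called higher in each line.

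Of 28 NF-kB pathway genes, 3 rose upon PDGF-AA in scramble cells (2 among the 9 samples of higher mapping rate) and 2 in shSrsf3 cells, and none fell, where 2% and 0.426% of all genes were called higher. The medians of the list were 0.01 and 0.05, near those of all genes. *Rel*, an NF-kB subunit, rose by a log2 fold change of 0.61 (adjusted p = 6.09e-05) and 0.38 (adjusted p = 0.0104), and *Map3k14*, the kinase of the noncanonical pathway, by 0.47 (adjusted p = 6.57e-04) and 0.37 (adjusted p = 0.0133). Between the lines, 6 of the 28 were higher and 9 lower without ligand and 4 were higher and 7 lower with it, shares near the 45.9% and 41% of all genes called. *Traf3*, an inhibitor of the noncanonical pathway, was higher in shSrsf3 cells by 0.43 and 0.55 (adjusted p = 9.17e-06 and 1.06e-06), *Tnip1* was lower by -0.49 without ligand (adjusted p = 4.48e-06), and *Myd88* was higher by 0.30 with it (adjusted p = 5.96e-05).

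Of 16 genes that act on the decay or stability of cytokine transcripts, 3 rose upon PDGF-AA in each line and none fell. Of all genes, 2% were called higher in scramble cells and 0.426% in shSrsf3 cells. *Zfp36l2*, which encodes a protein that binds AU-rich elements and promotes decay, rose by 0.78 in scramble cells (adjusted p = 7.34e-07) and by 0.69 in shSrsf3 cells (adjusted p = 8.84e-06). *Arid5a*, whose product stabilizes *Il6* transcripts, rose by 0.59 in scramble and 0.36 in shSrsf3 cells (adjusted p = 1.28e-04 and 0.0196), and *Zc3h12a*, which encodes a ribonuclease that degrades them, rose by 0.59 and 0.69 (adjusted p = 0.00111 and 0.00142). In each ligand condition 4 of the 16 were higher and 3 lower in shSrsf3 cells. This is near the share of all genes called, 45.9% without and 41% with ligand. Among those higher were *Mapkapk2*, a kinase that opposes decay (0.43 and 0.31, adjusted p = 7.01e-07 and 1.59e-05), and *Zfp36l2*, which promotes it (0.41 and 0.32, adjusted p = 8.67e-06 and 8.63e-05). The medians of this list upon ligand were 0.05 and -0.02, near those of all genes.

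Other cytokines and chemokines rarely passed the test upon PDGF-AA. Of 12 other chemokines tested among 30 listed, 1 rose in scramble cells, *Cx3cl1* (log2 fold change 0.33, adjusted p = 0.0209), where 4.04% of all genes were called, and this call was lost among the 9 samples of higher mapping rate. None was called in shSrsf3 cells (edgeR, 2 at an unadjusted p under 0.05). Of 13 other cytokines tested among 24 listed, *Clcf1*, a further gp130 cytokine, rose in scramble cells (0.30, adjusted p = 0.00252), and none was called in shSrsf3 cells, with 2 at an unadjusted p under 0.05. Between the lines, *Cxcl14* was lower in shSrsf3 cells by log2 fold changes of -2.95 and -2.61 (adjusted p = 2.08e-08 and 7.74e-08), and *Kitl*, which encodes stem cell factor, rose by 0.93 and by 0.80 (adjusted p = 1.11e-07 and 5.08e-07). The immediate early genes, transcription factors and regulators induced without new protein synthesis, are the yardstick of a ligand response at 1 hr. Of 20, 13 rose and 0 fell in scramble cells, where 2% of all genes were called higher and 2.04% lower. In shSrsf3 cells 8 rose and 1 fell, where 0.426% were called higher and 0.14% lower. The medians were 0.37 and 0.31, beside 0.61 and 0.69 for the members. Both lists were chosen with earlier results of these data known, so that the medians are a description. *Egr3* rose by 2.41 and 1.48 (adjusted p = 3.08e-07 and 1.06e-04), *Klf10* by 1.39 and 1.22 (adjusted p = 3.03e-09 and 2.02e-08), and *Egr1* by 1.44 and 1.08 (adjusted p = 9.66e-06 and 2.84e-04), values above those of *Ccl2*, *Ccl7*, and *Lif* in the same line. In shSrsf3 cells *Cxcl1*, at 1.55, lay above these 3 immediate early genes. No gene of these lists was called for the interaction by edgeR.

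The genes whose log2 CPM followed a member most closely over the 12 samples were sought among 12262 genes by Pearson r, as a description in which samples of 1 condition are not independent points. *Ccl2* was most alike to *Vegfa* (r = 0.97) and *Usp36* (0.96), and *Ccl7* to *Cebpb* (0.96) and *Klf10* (0.95). *Lif* was most alike to *Sema7a* (0.95) and *Tsku* (0.95), and *Csf1* to *Noct* and *Arc* (both 0.98). *Cxcl12* was followed by *Ggt7* and *Tap2* (both 0.99) and *Il6* by *Sbf2* (0.98) and *Arhgap32* (0.97). The closest genes were less close for *Il33* (*Helb*, 0.91, and *Gramd1b*, 0.90), *Il11* (*Mif4gd*, 0.85, and *Hotairm1*, 0.84), and *Cxcl1* (*Map3k11* and *Ccl2*, both 0.84). Within conditions, the members that moved together most were *Ccl7* and *Lif* (r = 0.89 over the 12 samples after the means of the conditions were subtracted), followed by *Ccl2* and *Ccl7*.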

How the data were processed

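RNA-seq libraries (stranded, poly(A)-selected) of the 12 samples were trimmed by the authors with BBDuk and quantified with Salmon 1.4.0 against GENCODE M26 on GRCm39, and transcripts were summed per gene with tximport. The authors deposited expected counts, estimates of the read pairs of each gene that were not scaled to depth, and 16.3% of values were not whole. The way tximport scaled counts is not given in the sources used here. Of 51490 genes, 24329 had no count in any sample. No column was left out. Samples were grouped by their labels.

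Expected counts were rounded and filtered with filterByExpr (minimum count 10) in edgeR 4.0.16, which left 15037 genes, and normalized by TMM. CPM values use these factors. The quasi-likelihood test was run on 1 mean per condition with all 12 samples, and p-values were adjusted over all 15037 genes by the Benjamini-Hochberg method. The threshold of a call was an adjusted p of 0.05, and a called gene was DE when it changed at least 2-fold. SEs of log2 fold changes were computed from the F statistics. An exact permutation test of 3 samples against 3 cannot go below 0.1. The test was checked on simulated data: for shSrsf3 versus scramble without ligand (14812 genes), 0.907 of genes changed by 1 and 0.969 of those changed by 2 on the log2 scale were recovered, and 0.0469 of calls were false. The simulation gave all genes the same dispersion, changed few of them, and held no outlying sample. Its shares therefore need not hold for the data.

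All 10 members are named. From each list the DE genes with a mean count of at least 50 (at most 4) are named, and where none was DE the 2 with the smallest p, with the 3 smallest for immediate early genes upon ligand. The 2 most alike genes of each member had a mean count of at least 50. Genes outside this rule (*Cxcr4*, *Ackr3*, *Ccr2*, *Cxcr2*, *Twist2*, *Vim*, and marker genes with no count) were named after their values were seen. A gene that the rule names is not reported here. The members and lists were chosen with earlier results of these data known. Gene positions, canonical transcripts, 3′ UTRs, and 31-base stretches came from GENCODE M39 on GRCm39. Whether Salmon used the strand is not given in the sources used here, so that reads of *Cxcl5*, *Il6*, *Csf1*, and *Il33* may not be told apart from those of genes overlapping them on the opposite strand. Replicate pairs all differed by more than sampling noise. Alternatives were DESeq2 1.42.0, other normalizations, no filter, equal depth, the groups compared alone, the 9 samples of higher mapping rate, a replicate block, and each sample left out. R 4.3.3, Python 3.11, pandas 2.3.3, numpy 2.4.6, and matplotlib 3.10.9 were used.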

Additional observations from a re-analysis of the deposited data

How the results depend on the processing

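The calls of *Ccl2* and *Ccl7* upon PDGF-AA in both lines, of *Csf1* upon PDGF-AA in scramble cells, of *Cxcl12* and *Il6* between the lines in both ligand conditions, and of *Ccl7* and *Csf1* between the lines without ligand held under all 14 alternatives each. Over all members and comparisons, 667 alternative values were computed, of which 590 kept direction and side of the threshold, 24 lost a call, 18 gained one, and 35 changed sign. With 1 sample left out at a time, the number of members called with ligand between the lines and upon PDGF-AA in shSrsf3 cells fell to 2 at the lowest, from 4. Without the filter on low counts, 1 member (*Cxcl1*) was called for the interaction. The replicate numbers do not pair the samples (18 same-numbered pairs, r of -0.14 to 0.20, 2 over 0.1), and with the replicate block 5, 4, 4, 3, and 0 members were called in the comparisons without ligand, with ligand, in scramble cells, in shSrsf3 cells, and for the interaction. *Lif* was then called between the lines (adjusted p = 0.0233 and 0.0314), and *Csf1* with ligand (0.0549) and *Cxcl1* in shSrsf3 cells (0.0611) were not, all in edgeR.

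No value that changed sign had been called. In the 9 samples of higher mapping rate, where the lone scramble -PDGF-AA sample is assumed to vary like the others, *Ccl2* between the lines without ligand was at 0.0187, *Il11* and *Il33* upon PDGF-AA in scramble cells at 0.22 and -0.0482, and the interactions of *Il11* and *Lif* at -0.35 and 0.10. At equal depth *Cxcl12* in shSrsf3 cells was at -0.0013 and the *Il11* interaction at -0.10, and in DESeq2 the *Il33* interaction was at -0.0251. With 1 sample left out, *Ccl2* ranged from -0.0458 to 0.0393 and *Il11* from -0.0245 to 0.41 between the lines without ligand, *Ccl2* from -0.12 to 0.20 with ligand, *Il11* from -0.35 to 0.0891 and *Il33* from -0.21 to 1.67 upon PDGF-AA in scramble cells, and *Cxcl12* from -0.0153 to 0.0459 and *Il11* from -0.29 to 0.0533 in shSrsf3 cells. Interactions ranged from -0.11 to 0.21 for *Ccl2*, -0.0902 to 0.20 for *Ccl7*, -0.0514 to 0.00971 for *Cxcl12*, -0.22 to 0.22 for *Il11*, -0.20 to 0.12 for *Lif*, and -0.81 to 1.07 for *Il33*. The cause was not tested. Depth limits *Cxcl5* and *Il33*, with at most 10 and 12 counts in a sample.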
